A study of Mus musculus with 10 samples.

Results

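The clustered protocadherins are 57 protein-coding genes on mouse chromosome 18 whose GENCODE M21 names begin with Pcdha, Pcdhb or Pcdhg, out of 21938 protein-coding genes on the mm10 assembly. The rule uses name and place and no measured value, but the family was picked with earlier results of these data known. The set holds 14 Pcdha, 22 Pcdhb and 21 Pcdhg genes. All lie on the plus strand within chr18:36930184-37841873, a span of 912 kb. The annotation gives the name Pcdha11 to a pair of genes, ENSMUSG00000007440 and ENSMUSG00000102206, which are kept apart below by their identifiers.

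Clustered protocadherins are cell-surface adhesion proteins of the cadherin superfamily, best known from neurons, where each cell uses only some of the family and the choice gives it a surface identity. Each Pcdha and Pcdhg isoform begins with its own large variable exon that carries its own promoter, and the variable exons of a family are joined to shared constant exons. Each Pcdhb gene has a single large coding exon and no constant exons. In most of these genes a promoter is known to work together with distant enhancers through CTCF, a DNA-binding protein that with cohesin forms chromatin loops.

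Chromatin accessibility was measured by ATAC-seq, in which a transposase inserts adapters into open DNA, in the prostate cancer line Myc-CaP, which comes from a male FVB/NJ mouse. Per the labels and the methods, 5 groups were compared at 48 h. They were untreated cells (Ctrl) and cells given oxaliplatin at 2 µM (Oxali), cisplatin at 2 µM (Cispl), interferon-γ at 1000 pg per ml (IFNγ), or Oxali + IFNγ at those doses. Each group had 2 libraries, which the authors pooled before calling peaks, so every group is 1 peak list of 1 cell line. The comparisons ask how a low dose of these agents altered accessibility. No difference below could be set against the spread between replicates, the intervals of levels and ratios cover counting error only, and those of shares of genes treat the genes as independent draws, which they are not.

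A start site was called where a deposited region with a q-value of at most 0.01 overlapped 1 kb on either side of the gene start. The level of a region is the number of read ends that MACS2 piled up at its highest summit, over the genome-wide background of that list, so that 1 is the background. That background, which is proportional to depth, was 12.1 in Ctrl, 11.3 after Oxali, 13.8 after Cispl, 9.62 after IFNγ and 12.9 after Oxali + IFNγ. IFNγ had the least depth. The lowest pileup that any deposited region held at the background was 21 in Ctrl, 20 after Oxali, 26 after Cispl, 18 after IFNγ and 22 after Oxali + IFNγ. Where a list has no region, accessibility below about these pileups was not detectable at its depth. Libraries hold many cells, so a region open in more cells and a region more open in each cell cannot be told apart.

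In untreated cells 8 of the 57 protocadherin start sites were called, which is 14.0% (7.29% to 25.3%, 95% Wilson interval), whereas 54.6% of all protein-coding start sites were called. They belonged to Pcdhb6, Pcdhb15, Pcdhb17, Pcdhb20, Pcdhga1, Pcdhga3, Pcdhgb6 and Pcdhgb7. No Pcdha start site had a region. The levels of these 8 ran from 2.31 to 8.07, with a median of 3.38, whereas the median over all called start sites was 92.4.

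More members than in Ctrl were called after either platinum drug, and fewer after IFNγ alone. After Oxali 26 members were called (45.6%; 33.4% to 58.4%), after Cispl 28 (49.1%; 36.6% to 61.7%) and after Oxali + IFNγ 29 (50.9%; 38.3% to 63.4%). After IFNγ alone 3 were called (5.26%; 1.81% to 14.4%). Over all protein-coding genes the shares were 56.5% after Oxali, 57.5% after Cispl, 54.1% after IFNγ and 57.6% after Oxali + IFNγ. With an equal number of the strongest regions kept in each list, the counts were 7 in Ctrl, 20 after Oxali, 12 after Cispl, 3 after IFNγ and 20 after Oxali + IFNγ. The shares of all genes in that setting were 54.2%, 54.2%, 54.4%, 54.1% and 54.5%.

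**Figure D1:**
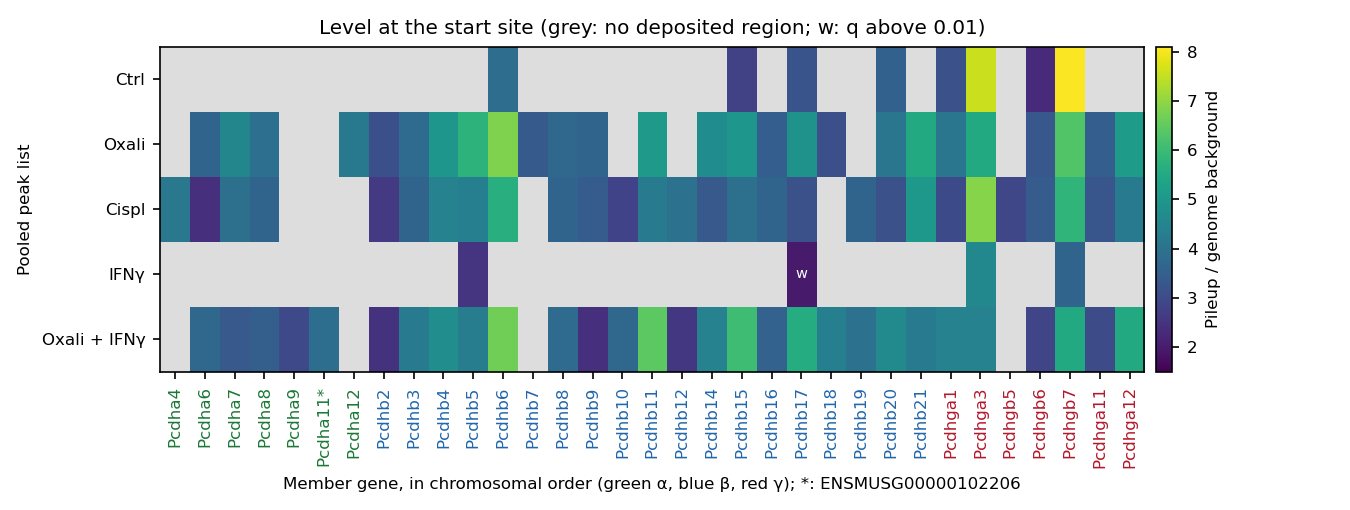
Level at the start site, as pileup over genome background (color scale), of the 33 members with a deposited region in any list, in chromosomal order along the x axis, for the 5 pooled peak lists on the y axis. Grey cells have no deposited region and the cell marked w has a q-value above 0.01; the Ctrl and IFNγ rows are mostly grey, whereas the rows of the 3 platinum lists are mostly filled.

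Calls in some lists and not in others were frequent among the members. Of the 57, 24 (42.1%) had no region at the start site in any list and 31 (54.4%) were called in 1 to 4 lists. The other 2 (3.51%), Pcdhga3 and Pcdhgb7, were called in all 5. Of the 21938 protein-coding genes 8781 were called in no list, a share near that of the members, whereas 7.33% were called in 1 to 4 lists and 52.6% in all 5. The most frequent pattern among called members, held by 14, was a region after Oxali, Cispl and Oxali + IFNγ and none in Ctrl or IFNγ.

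Of the 49 members without a Ctrl region, 18 gained a called region after Oxali (36.7%; 24.7% to 50.7%), against a background of 5.95% of all genes without a Ctrl region. After Cispl 20 did (40.8%; 28.2% to 54.8%), against 7.31%. After Oxali + IFNγ 21 did (42.9%; 30.0% to 56.7%), against 7.9%. After IFNγ alone 1 did (2.04%; 0.361% to 10.7%), against 1.84%, so that the share there was near the background. All treated lists are set against the same Ctrl list, so these counts are not independent of each other. The platinum lists also held more regions over the genome, and with an equal number of the strongest 113014 regions kept per treated list the gains were 13 after Oxali, 8 after Cispl, 1 after IFNγ and 13 after Oxali + IFNγ. In that setting the shares were 26.5%, 16.3%, 2.04% and 26.5% of the members without a Ctrl region, and 2.85%, 2.82%, 1.84% and 3.39% of all such genes.

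The gained start sites, which lie above the calling limit by definition, were low on the scale of all genes. Their levels had a median of 3.86 after Oxali (3.10 to 5.77), 3.63 after Cispl (2.40 to 5.01) and 3.80 after Oxali + IFNγ (2.40 to 6.43). The lowest level of a deposited Ctrl region at the background was 1.73. Of the gained members 15 of 18 after Oxali, 13 of 20 after Cispl and 15 of 21 after Oxali + IFNγ stood at 2 or more times that level. These levels come from the same lists that selected the genes, and the share over all gained genes was not computed.

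The Pcdhb genes made up most of the gain. Of the 18 Pcdhb genes without a Ctrl region, 12 gained one after Oxali (66.7%; 43.7% to 83.7%), 13 after Cispl (72.2%; 49.1% to 87.5%), 14 after Oxali + IFNγ (77.8%; 54.8% to 91.0%) and 1 after IFNγ (5.56%; 0.988% to 25.8%). Of the 14 Pcdha genes, 4 gained one after Oxali, 4 after Cispl, 5 after Oxali + IFNγ and 0 after IFNγ. Of the 17 Pcdhg genes without a Ctrl region, 2, 3, 2 and 0 did in the same order. In all 3 platinum lists 15 of the 49 members without a Ctrl region gained one, of which 10 were Pcdhb genes. Of the 9893 protein-coding genes without a Ctrl region 387 did. The genes of a family are close copies of each other, so the share is a description of this cluster and not of independent genes.

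**Figure D2:**
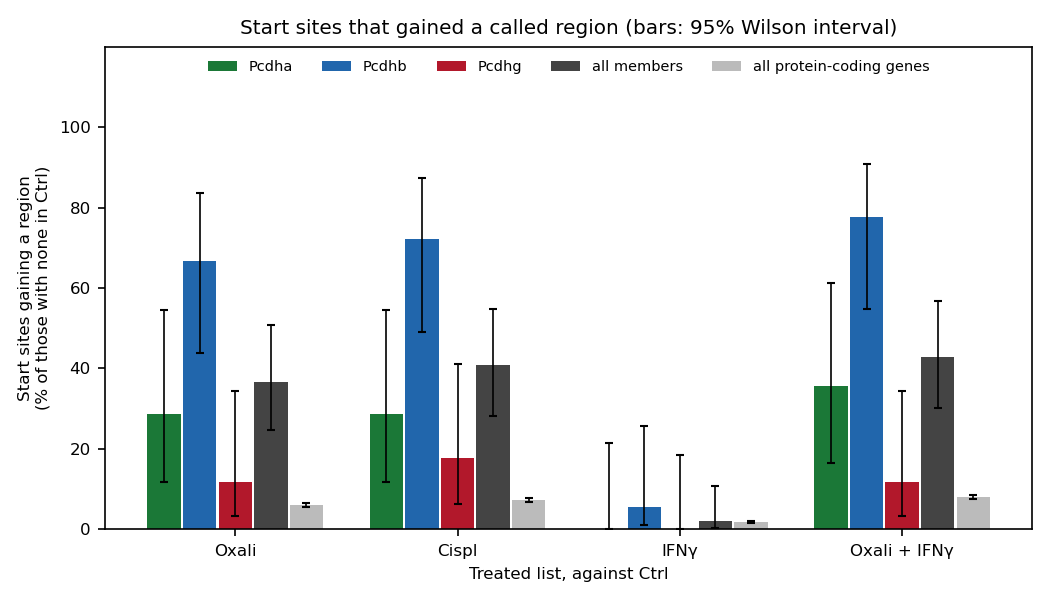
Percentage of start sites without a Ctrl region that gained a called region (y axis) in each treated list (x axis), for Pcdha, Pcdhb, Pcdhg, all members and all protein-coding genes, with 95% Wilson intervals as error bars. Pcdhb bars stand between 66.7% and 77.8% with the platinum drugs and at 5.56% after IFNγ, and the grey bars of all genes stand at most at 7.9%.

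Pcdhb5, Pcdhb11, Pcdhb21, Pcdhb4 and Pcdhga12 had the highest gained levels after Oxali, at 5.77, 5.06, 5.50, 4.97 and 5.15. After Cispl the same 5 genes led, at 4.36, 4.21, 5.01, 4.43 and 4.21. In Ctrl none of them had a region. After Oxali + IFNγ the leading gained genes were Pcdhb11 at 6.43, Pcdhga12 at 5.50, Pcdhb4 at 4.73, Pcdhb14 at 4.42 and Pcdhb18 at 4.34. Pcdhb5 was also the only member gained after IFNγ alone, at a level of 2.49 from a pileup of 24.

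Some gains appeared with 1 or 2 of the drugs. Pcdhb10, Pcdhb12 and Pcdhb19 were gained after Cispl and Oxali + IFNγ, at levels of 2.83 and 3.72, 4.00 and 2.56, and 3.63 and 3.95. Pcdhb18 was gained after Oxali at 3.10 and after Oxali + IFNγ. Pcdha4 (4.14) and Pcdhgb5 (2.91) had a region after Cispl only, Pcdha12 (4.17) and Pcdhb7 (3.37) after Oxali only, and Pcdha9 (2.94) and Pcdha11 (ENSMUSG00000102206, 3.87) after Oxali + IFNγ only. With 1 list per group, a call in a single list and none in another does not show that the drugs differed there.

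The 24 members without a region in any list included all 5 C-type genes, Pcdhac1, Pcdhac2, Pcdhgc3, Pcdhgc4 and Pcdhgc5, which lie at the ends of the Pcdha and Pcdhg families next to the constant exons and are known to be used more uniformly among neurons than the rest. The others were Pcdha1, Pcdha2, Pcdha3, Pcdha5 and Pcdha11 (ENSMUSG00000007440), Pcdhb1, Pcdhb13 and Pcdhb22, and 11 Pcdhg genes. By family 7 of 14 Pcdha, 3 of 22 Pcdhb and 14 of 21 Pcdhg genes had none.

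Among the members called in Ctrl, Pcdhgb7 and Pcdhga3 had the highest levels, and their levels were lower than in Ctrl in all 4 treated lists when scaled to the genome background, but only after IFNγ when scaled to common start sites as described further on. Pcdhgb7 had pileups of 98 in Ctrl, 71 after Oxali, 80 after Cispl, 35 after IFNγ and 71 after Oxali + IFNγ, or levels of 8.07, 6.30, 5.81, 3.64 and 5.50. Pcdhga3 had pileups of 92, 62, 95, 44 and 57 in the same order, or levels of 7.58, 5.50, 6.90, 4.57 and 4.42. Their ratios after IFNγ were 0.451 (0.297 to 0.669, from the counts) for Pcdhgb7 and 0.603 (0.411 to 0.873) for Pcdhga3. The intervals held 1 after Oxali for both genes, at 0.567 to 1.07 and 0.517 to 1.01, and after Cispl for Pcdhga3, at 0.676 to 1.23.

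Pcdhb6 had pileups of 47 in Ctrl, 77 after Oxali, 78 after Cispl and 86 after Oxali + IFNγ, and no region after IFNγ. Its level was 1.76 times the Ctrl level after Oxali (1.21 to 2.59), 1.46 times after Cispl (1.01 to 2.15) and 1.72 times after Oxali + IFNγ (1.19 to 2.51). Pcdhb15 had pileups of 34, 56, 54 and 78 in those lists and none after IFNγ. Its ratios were 1.77 (1.14 to 2.80), 1.40 (0.896 to 2.22) and 2.16 (1.43 to 3.33), so that the Cispl interval held 1.

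Pcdhb17 had pileups of 39 in Ctrl, 55 after Oxali, 43 after Cispl and 72 after Oxali + IFNγ, and a region after IFNγ at a pileup of 19 whose q-value missed the threshold. Its ratios were 1.52 (0.989 to 2.35) after Oxali, 0.972 (0.616 to 1.54) after Cispl and 1.74 (1.16 to 2.63) after Oxali + IFNγ. Pcdhb20 had pileups of 43, 46, 43 and 60, Pcdhga1 of 38, 46, 41 and 57, and Pcdhgb6 of 28, 37, 47 and 37, in Ctrl, Oxali, Cispl and Oxali + IFNγ. These 3 genes had no region after IFNγ, and the intervals of their ratios to Ctrl all held 1 on this scale.

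Over the 8 members the median log2 ratio of level to Ctrl was 0.45 after Oxali, −0.06 after Cispl and 0.44 after Oxali + IFNγ, and over the 3 with a region in the IFNγ list it was −0.73. Over all genes it was −0.46, −0.65, −0.89 and −0.55 in the same order. On the genome-background scale the median of all genes was thus below that of Ctrl in every treated list, so the levels were also scaled to the 11548 start sites called in all 5 lists. The genome-background values differed from those by −0.47, −0.66, −0.91 and −0.55 on the log2 scale, and the medians of the members became 0.91, 0.60, 1.35 and −0.17. Pcdhga3 after Oxali + IFNγ then turned from a ratio of 0.583 to a log2 ratio of 0.13, and Pcdhgb7 with the 3 platinum treatments to 0.11, 0.19 and 0.35. Pcdhga3 also turned above 0 after Oxali and Cispl, to 0.004 and 0.53. After Cispl so did Pcdhb17, Pcdhb20 and Pcdhga1, to 0.62, 0.48 and 0.59.

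Other start sites of low level had medians near those of the members after Oxali and Oxali + IFNγ and above them after Cispl and IFNγ. The 1272 other genes called in Ctrl at a level below 10 had median log2 ratios of 0.36 after Oxali, 0.40 after Cispl, −0.08 after IFNγ and 0.44 after Oxali + IFNγ on the genome-background scale. This group was chosen after the values of the members were seen. At 1.5-fold or more, 3 of 8 members were higher after Oxali (Pcdhb6, Pcdhb15 and Pcdhb17), against 4.75% of all genes and 37.8% of the other low-level genes with a region in both lists. The same 3 were after Oxali + IFNγ, against 5.3% and 42.3%, so that in both lists the share of members was near that of start sites of like level. After Cispl 0 of 8 were, against 4.44% and 38.7%, and after IFNγ 0 of 3, against 0.648% and 6.15%. Lower by as much were 3 of 3 after IFNγ, against 44.6% of all genes and 12.6% of the low-level ones, and 1 of 8, Pcdhga3, after Oxali + IFNγ, against 70.5% and 5.36%. After Oxali and Cispl 0 of 8 were, against 32.4% and 57.8% of all genes and 4.91% and 4.26% of the low-level ones.

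**Figure D3:**
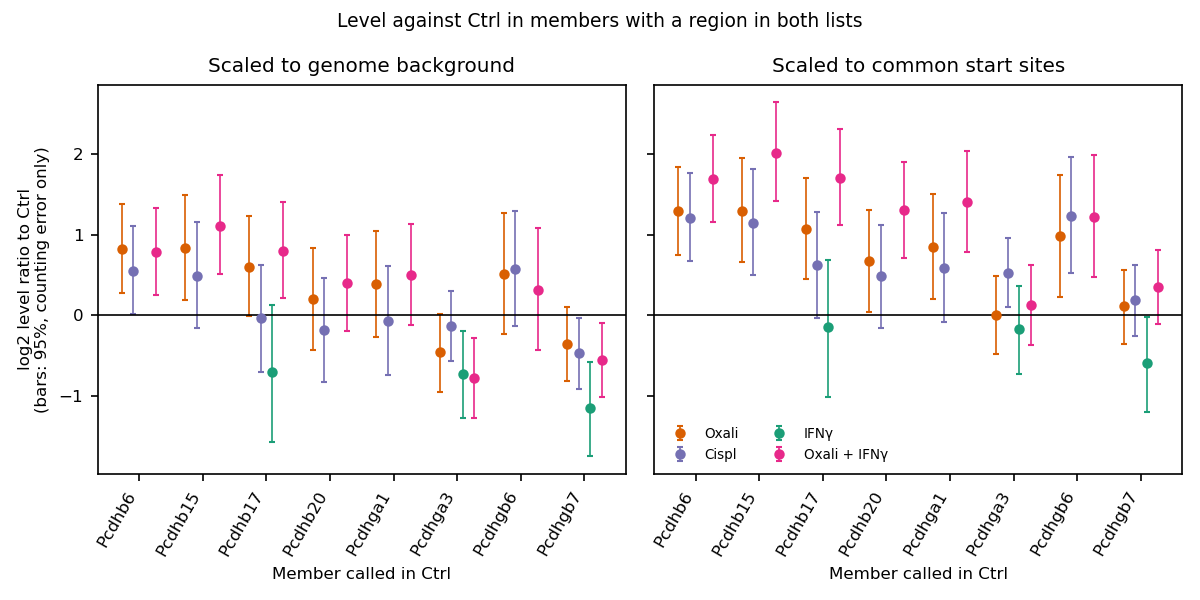
log2 ratio of level to Ctrl (y axis) for the 8 members called in Ctrl (x axis), scaled to the genome background (left) and to start sites called in all 5 lists (right); points are pooled lists and bars are 95% intervals for counting error only. Pcdhga3 and Pcdhgb7 lie below 0 in every treated list on the left, whereas on the right Pcdhb6 and Pcdhb15 reach 1.69 and 2.02 after Oxali + IFNγ.

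After IFNγ 5 of the 8 members called in Ctrl had no region (62.5%), against 2.31% of all genes called in Ctrl. These were Pcdhb6, Pcdhb15, Pcdhb20, Pcdhga1 and Pcdhgb6, with Ctrl levels of 2.31 to 3.87. Of the 1272 other genes called in Ctrl below a level of 10, 20.8% were lost after IFNγ. None of the 8 was lost after Oxali, Cispl or Oxali + IFNγ, against 1.53%, 1.06% and 1.17% of all genes and 13.5%, 9.51% and 10.5% of the low-level ones. The depth of the IFNγ list was 79.3% of that of Ctrl, and the part of depth in these losses was not tested.

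Oxaliplatin and cisplatin, both platinum compounds that crosslink DNA, were given at the same dose and time. Of the 26 members called after Oxali and the 28 after Cispl, 23 were called with both, which is 88.5% and 82.1% of each. Among all genes at least 11905 of the 12404 called after Oxali and the 12609 after Cispl were called with both. Those are larger shares than in the members. Over the 23 members the median level after Cispl was 0.867 times that after Oxali, and the same ratio over all genes was 0.873. On the scale of common start sites it was 0.992 for the members. Between Oxali and Oxali + IFNγ 24 members were shared, which is 92.3% and 82.8% of each. Among all genes at least 11905 of the 12404 called after Oxali and the 12638 after Oxali + IFNγ were shared. In the 24 members the level with the combination was higher in 11 and lower in 13, with a median ratio of 0.963. Over all genes that ratio was 0.754, and on the scale of common start sites the members had 1.31.

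Within the Pcdhb and the Pcdhg genes the summit lay at a similar place from gene to gene. In Pcdhb genes the summits called after Oxali lay 131 to 269 bp upstream of the first coding base in 16 of 16 genes, after Cispl 142 to 276 bp upstream in 17 of 17, and after Oxali + IFNγ 126 to 263 bp upstream in 18 of 18. In Ctrl the 4 Pcdhb summits lay 170 to 261 bp upstream. The Pcdhg summits lay 217 to 249 bp upstream after Oxali in 6 of 6 genes, 230 to 250 bp after Cispl in 7 of 7, and 215 to 241 bp in Ctrl in 4 of 4. For comparison, 31.2% of all called genes after Oxali and 33.5% in Ctrl had a summit between 100 and 400 bp upstream of the first coding base, a range set after the members' positions were seen. The IFNγ region of Pcdhb5 was the exception among Pcdhb genes, with its summit 226 bp inside the coding sequence, whereas its Oxali summit lay 202 bp upstream.

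Pcdha genes differed from both other families. Pcdha6, Pcdha7 and Pcdha8 were called in all 3 platinum lists, and Pcdha4 after Cispl, with summits 419 to 474 bp inside the coding part of the variable exon. Pcdha9, Pcdha11 (ENSMUSG00000102206) and Pcdha12 had their summits 93, 182 and 171 bp upstream of the first coding base, each in 1 list. Over the 23 members called in all 3 platinum lists, the summits of a gene lay within a median of 12 bp of each other across those lists, and at most 66 bp, where the median over all genes called in those lists was 17 bp.

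**Figure D4:**
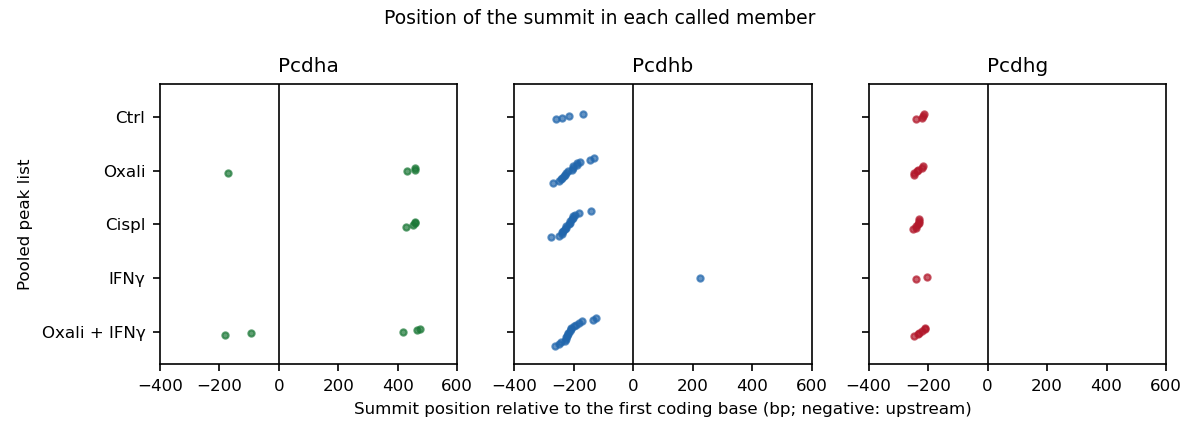
Position of the highest summit relative to the first coding base (x axis, in bp, negative upstream) for each called Pcdha, Pcdhb and Pcdhg gene, in each of the 5 pooled peak lists (y axis). Each point is a gene; Pcdhb and Pcdhg points gather between 126 and 276 bp upstream apart from Pcdhb5 after IFNγ, and most Pcdha points lie more than 400 bp downstream.

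The regions were narrow. Their median length was 201.5 bp in Ctrl, 204.5 bp after Oxali, 199 bp after Cispl, 215 bp after IFNγ and 223 bp after Oxali + IFNγ, against 1093 to 1216 bp over all called start sites. In 100% of called members the local background that MACS2 used was the genome-wide one, whereas this held for 6.71% to 8.92% of all called start sites. Median levels were 3.38 to 4.18 in called members and 46.0 to 92.4 over all called start sites. Neither length nor background was compared with start sites of like level, so they are not shown to be traits of the family.

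A short core of the CTCF consensus sequence, searched on both strands, lay within 1 kb of the start site of 28 of 57 members (49.1%), against 32.7% of all protein-coding genes. Read backwards without complementing, the same letters were found in 7.02% of members and 19.8% of all genes. The reversed letters hold a fixed CG pair that the searched ones lack, so they are not a matched control. By family the searched pattern was present in 11 of 14 Pcdha, 7 of 22 Pcdhb and 10 of 21 Pcdhg genes. All 11 Pcdha matches lay on the minus strand 340 to 486 bp downstream of the gene start, inside the variable exon. These exons are similar in sequence, so the shared place does not come from independent genes. The accessible summits of Pcdha6, Pcdha7 and Pcdha8 lay 79, 110 and 118 bp from their match, whereas those of Pcdha9, Pcdha11 (ENSMUSG00000102206) and Pcdha12 lay 523, 522 and 511 bp from theirs.

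In Pcdhgb5, Pcdhgb6 and Pcdhgb7 the match lay 85, 73 and 58 bp upstream of the gene start and 0, 1 and 6 bp from the nearest called summit, whereas in Pcdhga3, which was called in all 5 lists, the nearest match lay 439 bp from a called summit. Pcdhgb4 and Pcdhgc3 had a match 45 and 34 bp upstream of the start and no region in any list. No called Pcdhb summit had a match within 100 bp in any list, whereas about 10% of all called genes did (10.0% in Ctrl and 9.72% after Oxali). The sequence searched is a short pattern that differs from the CTCF core, and no match says only that these letters are not in the window. Among members without a Ctrl region, 9 of 25 with a match in the start-site window and 9 of 24 without gained a region after Oxali, 11 and 9 did after Cispl, and 12 and 9 after Oxali + IFNγ. Among all other genes without a Ctrl region, 6.86% with a match and 5.46% without gained one after Oxali, 8.34% and 6.75% after Cispl, and 8.63% and 7.44% after Oxali + IFNγ.

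Over the whole cluster, called regions numbered 15 in Ctrl, 40 after Oxali, 44 after Cispl, 7 after IFNγ and 52 after Oxali + IFNγ. They covered 4503, 11242, 11376, 2591 and 15444 bp, or 0.494%, 1.23%, 1.25%, 0.284% and 1.69% of the span. The counts were 2.67, 2.93, 0.467 and 3.47 times that of Ctrl, against 1.30, 1.45, 0.956 and 1.43 over all chromosomes and 1.40, 1.52, 0.950 and 1.59 on chromosome 18. Of the cluster's regions 62.5% after Oxali (47.0% to 75.8%), 63.6% after Cispl (48.9% to 76.2%), 28.6% after IFNγ (8.22% to 64.1%) and 71.2% after Oxali + IFNγ (57.7% to 81.7%) overlapped no Ctrl region, against 32.5%, 37.3%, 12.9% and 38.4% over all chromosomes.

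The Pcdha stretch held 0 called regions in Ctrl, 6 after Oxali, 6 after Cispl, 1 after IFNγ and 10 after Oxali + IFNγ. The Pcdhb stretch held 7, 21, 22, 1 and 25, and the Pcdhg stretch 5, 10, 13, 4 and 14. Merged over the lists the cluster had 63 deposited regions, of which 35 lay at a member start site, 4 at the start of another gene, 12 in an exon of a member and 12 elsewhere.

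**Figure D5:**
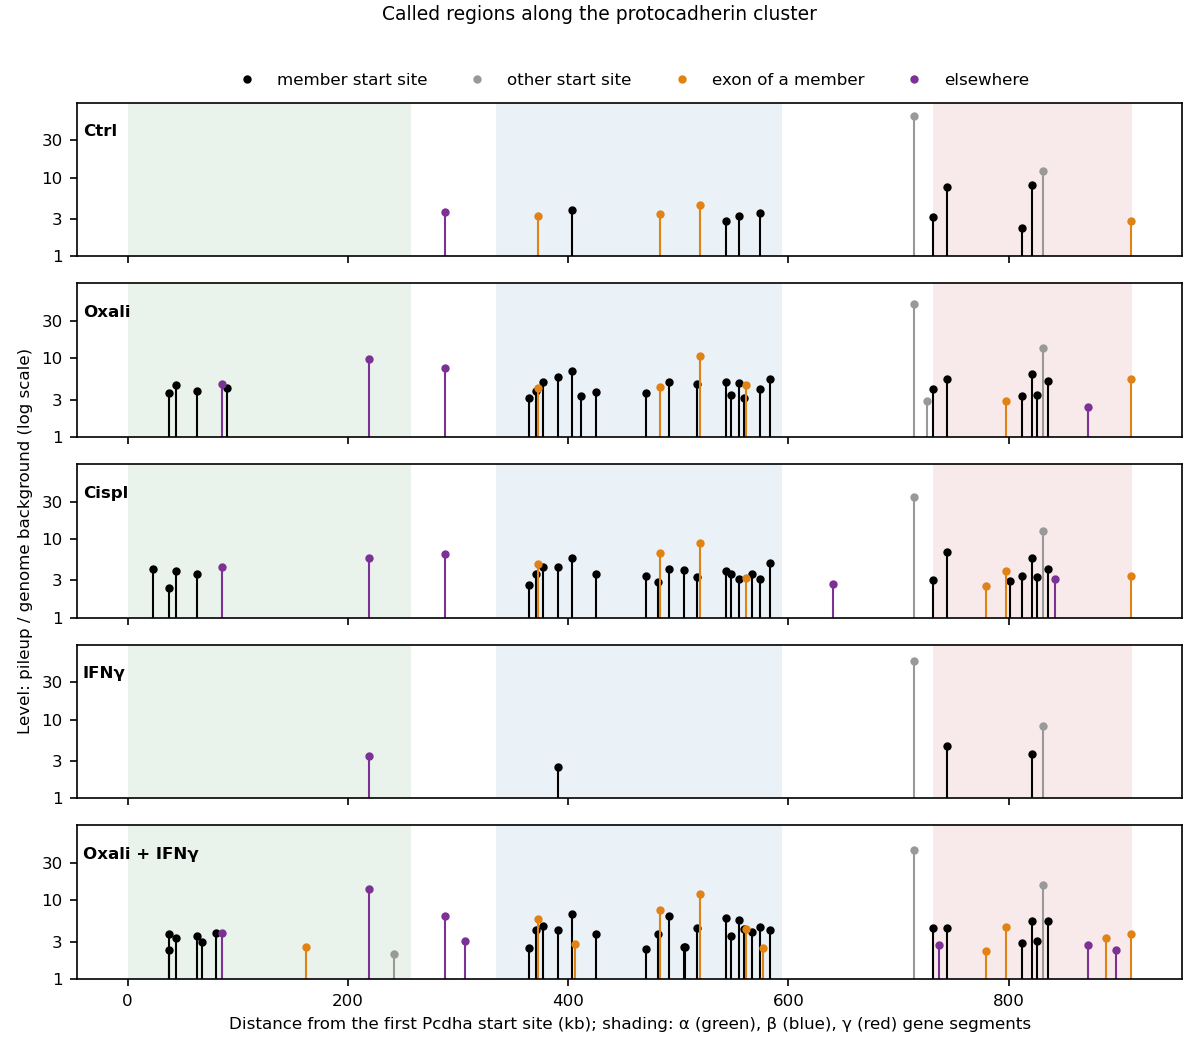
Called regions along the cluster in the 5 pooled peak lists, by distance in kb from the first Pcdha start site (x axis), with their level as pileup over genome background on a log scale (y axis) and colors for the class of region. The Pcdha stretch is empty in Ctrl, the highest bar in each panel is the start site of Taf7 between the Pcdhb and Pcdhg genes, and the platinum panels fill the Pcdhb stretch.

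Regions inside coding exons lay at a similar distance from the start of the coding sequence, 1926 to 2229 bp downstream of the first coding base, in 10 of 11 genes, among them Pcdhga11, whose region was called in no list. The exception was Pcdhgc4, at 2846 bp and called only after Oxali + IFNγ, at a level of 3.33. The remaining exon region, at chr18:37841354-37841582 in the last exon shared by the Pcdhg genes, had levels of 2.80 in Ctrl, 5.41 after Oxali, 3.41 after Cispl and 3.80 after Oxali + IFNγ, and none after IFNγ. In Pcdhb3, Pcdhb6, Pcdhb10, Pcdhb14, Pcdhb18 and Pcdhb20 their summit lay 2005 to 2229 bp downstream of the first coding base. The region in Pcdhb14 (chr18:37449602-37450176) was the highest of them, at levels of 4.53 in Ctrl, 10.7 after Oxali, 8.86 after Cispl and 12.2 after Oxali + IFNγ. It stood above the start-site region of the same gene in each platinum list. The region in Pcdhb10 (chr18:37413772-37414195) had 3.46, 4.35, 6.68 and 7.59 in those lists. Neither had a region after IFNγ.

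The region in Pcdhb18 (chr18:37491512-37491756) was gained, at 4.61 after Oxali, 3.20 after Cispl and 4.34 after Oxali + IFNγ. So was a region in the variable exon of Pcdhga8 (chr18:37727757-37728072), 2071 bp downstream of its first coding base, at 2.84, 3.92 and 4.57, although the start site of Pcdhga8 had no region. The exons of these genes are similar in sequence. The authors filtered out poorly mapped reads, and whether reads of near-identical copies were lost or misplaced here was not tested.

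Of the regions outside exons and start sites, that at chr18:37149035-37149944 had the highest level after Oxali, IFNγ and Oxali + IFNγ, though not after Cispl. It lies in an intron shared by the Pcdha genes, 5532 bp past the start of Pcdhac2, and had no region in Ctrl and levels of 9.94 after Oxali, 5.74 after Cispl, 3.43 after IFNγ and 13.9 after Oxali + IFNγ. It was the only region away from start sites called after IFNγ. A region at chr18:37218157-37218536, between the Pcdha and Pcdhb genes and 46402 bp from the start of Pcdhb1, had levels of 3.71 in Ctrl, 7.54 after Oxali, 6.47 after Cispl and 6.43 after Oxali + IFNγ, and none after IFNγ. An enhancer of the Pcdha genes is known from this gap, but its coordinates were not used here. Another, at chr18:37015653-37016006 and 4143 bp before Pcdha12, was gained at 4.79, 4.36 and 3.87 in the platinum lists. None of the 12 regions of this class held the short pattern searched above.

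Taf7 and Pcdhgb8, whose start sites also lie in the span, were called in all 5 lists. Taf7, which encodes a subunit of the general transcription factor TFIID, had levels of 60.6 in Ctrl, 49.0 after Oxali, 34.1 after Cispl, 55.1 after IFNγ and 43.6 after Oxali + IFNγ. Pcdhgb8, annotated as a polymorphic pseudogene and so not a member, had 12.0, 13.6, 12.5, 8.21 and 15.9 at its start, above every member in each list.

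Of 17 genes that code for known regulators of the cluster or of chromatin loops, 15 were called in every list, and none was gained or lost. Ctcf had levels of 160 in Ctrl, 114 after Oxali, 108 after Cispl, 93.1 after IFNγ and 68.0 after Oxali + IFNγ. Rad21, a cohesin subunit, had 78.6, 55.6, 52.5, 55.9 and 38.9. Smchd1, a chromatin protein known to keep clustered protocadherins silent, had 203, 151, 116, 110 and 106, and Rest, a repressor of neuronal genes, had 74.1, 82.5, 73.3, 58.7 and 48.5.

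Smc3, Mau2, Wapl, Pds5b and Setdb1 were at least 1.5-fold lower in all 4 treated lists on the genome-background scale, whereas 0 of the 15 were on the scale of common start sites. On the first scale 32.4% of all genes after Oxali, 57.8% after Cispl, 44.6% after IFNγ and 70.5% after Oxali + IFNγ were lower by as much. The median ratio of the 15 to Ctrl was 0.708 after Oxali, 0.617 after Cispl, 0.644 after IFNγ and 0.466 after Oxali + IFNγ, where all genes had 0.728, 0.637, 0.683 and 0.540. On the scale of common start sites it was 0.978, 0.976, 0.946 and 0.873. Ctcfl and Stag1 had no region at their start.

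Of 12 protocadherin genes outside the cluster, Pcdh1 was called in every list, at levels of 65.9, 50.7, 47.7, 62.8 and 57.8, and the other 11, among them Pcdh7, Pcdh10 and Pcdh19, had no region in any list. Of 10 neighbouring genes 9 were called in every list. Among them Arap3 was alone in standing at least 1.5-fold higher after Oxali, at levels of 3.30 in Ctrl and 6.30 after Oxali, with 4.94, 2.49 and 8.60 in the other lists. Diaph1 and Hdac3 had 143 and 85.1 in Ctrl and 92.0 and 57.9 after Oxali.

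Among markers of luminal prostate epithelium, Foxa1, Hoxb13 and Krt8 were called in every list, with levels of 98.6, 93.8 and 28.6 in Ctrl, whereas Cdh1 had no region at its start in any list. Of 8 neural markers 2 were called in Ctrl, 3 after Oxali, 2 after Cispl, 1 after IFNγ and 3 after Oxali + IFNγ, with summed levels of 62.2, 54.3, 46.4, 43.5 and 51.8. Gfap was called in every list, at 54.7, 41.5, 39.7, 41.5 and 37.2, and made up most of each sum. Snap25 had levels of 5.52 in Ctrl, 4.79 after Oxali and 4.49 after Oxali + IFNγ, and no region after Cispl or IFNγ. Syt1, Tubb3, Stmn2 and Olig2 had none in any list. Rbfox3 had none in Ctrl and levels of 7.98 after Oxali, 6.61 after Cispl and 10.1 after Oxali + IFNγ. Immune markers were called for 1, 2, 2, 1 and 2 of 6 genes, with summed levels of 22.1, 19.1, 22.1, 18.7 and 17.8. Ptprc and Cd3e had no region in any list, and Lyz2, a gene of macrophages and other myeloid cells, had none in Ctrl or IFNγ and levels of 5.06 after Oxali, 4.07 after Cispl and 4.03 after Oxali + IFNγ. Fibroblast and endothelial markers were called for 3, 2, 3, 2 and 3 of 6, with summed levels of 64.3, 48.6, 48.6, 46.7 and 42.8. Most of each sum was Col1a1, at 49.9, 37.2, 31.9, 34.5 and 28.4. The part of cells of these other types in the gains of protocadherin regions was not tested.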

How the data were processed

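ATAC-seq libraries of Myc-CaP cells were used as 5 deposited narrowPeak lists, 1 per group of 2 libraries. Per the study's methods and the submitters' processing notes, the authors trimmed reads with cutadapt, aligned them to mm10 with Bowtie2 2.2.8, removed poorly mapped, duplicate and mitochondrial reads with SAMtools and Picard, pooled both libraries of a group, called peaks with MACS2 2.1.0 on read ends shifted and extended to 150 bp, and removed blacklisted regions. The deposited fold of a summit is the ratio (pileup + 1)/(local background + 1) that the authors obtained with MACS2. Also deposited are its −log10 p-value and −log10 q-value from a Poisson model. No counts per library were analysed here, so no replicate test was made. The Cispl list ends at a −log10 p of 2.99, the others at 2.00, so its weakest regions are missing.

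The whole-number pileup and background that give each fold and p were solved (100% of summits within 0.02 in −log10 p). Depth was read from the genome background of a list. A gene gained a region when it was called in the treated list and no deposited Ctrl region lay in its window, and lost a region in the mirror case. Genes came from GENCODE M21, and start sites are gene starts. Shares carry Wilson intervals, and ratios exact conditional binomial intervals (95%). Sequence was read from the mm10 assembly. Python 3.11.15, numpy 2.4.6, scipy 1.17.1 and pandas 2.3.3 were used, and the recovery was tested on simulated data. Samples were grouped by their titles.

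The members, gene lists, thresholds and alternatives were chosen with earlier results of these data known. The rule named the 5 C-type genes, the 3 highest Ctrl levels of each family, the 5 highest gained levels and the 3 highest and lowest ratios of each treated list, Ctcf, Rad21, Smchd1, Rest and any regulator past 1.5-fold in all 4 treated lists, and, away from member start sites, the 5 highest Ctrl regions and those gained in all 3 platinum lists. Other genes and regions are named to account for every member and were chosen after their values were seen. Some marker genes of the fixed lists are not reported here.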

Additional observations from a re-analysis of the deposited data

How the results depend on the processing

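Every result above compares single pooled lists, so depth and counting error limit it. Counts of called, gained and lost members stayed within 1.5 times of the reported count with every deposited region, a q-value of at most 1e-05, a common p threshold, a 500 bp window and the start of every transcript, except that the 1 gain after IFNγ became 0 at 1e-05. Keeping an equal number of the strongest regions, which was added once the data had been seen, left 12 members called after Cispl, and 8 gained after Cispl and 13 after Oxali + IFNγ. Coverage of the cluster stayed within 1.5 times under every threshold tried. Leaving out each library was not run, as no list holds values per library. No paired analysis was possible because the lists used here hold no values per library.

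On the scale of common start sites the median log2 ratio of the members became 0.91 after Oxali, 0.60 after Cispl, where its sign turned, −0.17 after IFNγ and 1.35 after Oxali + IFNγ. With the background subtracted it was 0.67 after Oxali, −1.18 after IFNγ and 0.60 after Oxali + IFNγ. Members at least 1.5-fold higher were then 6 after Oxali, 5 after Cispl and 6 after Oxali + IFNγ on the common scale, and 1 was lower after IFNγ and 0 after Oxali + IFNγ. At 2-fold on the genome-background scale, 0 were higher after Oxali and 1 after Oxali + IFNγ, and 1 was lower after IFNγ and 0 after Oxali + IFNγ. Pcdhga3 after Oxali + IFNγ turned to 0.13 on the common scale. The scalings differ by construction in what is held constant, and which is nearer to the cells was not tested.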
